A study of Mus musculus with 12 samples.

Results

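Mouse bone marrow-derived macrophages (BMDMs), differentiated in culture, were compared between genotypes after loading with oxidised low-density lipoprotein (OxLDL). The comparison rests on 6 of the 12 RNA-seq libraries in the series: 3 from control mice (WT) and 3 from mice carrying Gpnmb R150X (R150X), all given OxLDL. The other 6 libraries, the same genotypes left untreated, helped to estimate the spread and are set beside a result where the genotype difference changed with OxLDL. Both genotypes carry one strain label, a DBA/2 by C57BL/6 cross that was then bred back to C57BL/6, with no number of generations. The sources used here give no sex, age, OxLDL dose or duration, and do not say whether the 3 libraries of a group came from separate mice, separate cultures or a pool. The p-values therefore measure only the spread between these libraries, which may be technical. All 15338 genes that passed a filter on low counts, of 54532 in the table, were compared.

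GPNMB is a transmembrane glycoprotein of macrophages whose lysosomes are under load, and it is among the genes most strongly induced when macrophages fill with lipid. The R150X allele, known from DBA/2J mice, puts a premature stop codon in the part of the protein that faces outside the cell. Foam cells form when macrophages take up modified lipoprotein through scavenger receptors, break down its cholesteryl esters in lysosomes, store the cholesterol again in lipid droplets and export part of it under control of the LXR nuclear receptors.

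The codon the allele is named for is shown because it defines the comparison. In the reference coding sequence of transcript Gpnmb-201 (GENCODE M21, GRCm38) codon 150 lies in exon 4 of 11, at chr6:49045385-49045387 on the plus strand, and 26.0% of the 574 coding codons come before it. It is printed in capitals with its flanks, 5′ to 3′. It reads as an arginine codon in the reference, and the allele itself was not read from these libraries.
Gpnmb codon 150: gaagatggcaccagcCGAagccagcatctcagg

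Gpnmb (ENSMUSG00000029816, chr6:49036546-49070929) held 12552, 12355 and 12615 CPM in WT and 704, 691 and 724 CPM in R150X, where CPM are counts scaled to a common library size. Every R150X library was far below every WT library (a log2 difference of -4.15, SE 0.0427, adjusted p = 2.2e-24). Reads of the gene remained in all 3 R150X libraries, and its level went with the genotype labels. Log2 differences are R150X over WT and stand with their fitted SE, adjusted p-values are from the quasi-likelihood test of edgeR, corrected by Benjamini-Hochberg over all genes, and means ± SD are over n = 3 libraries throughout.

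Total counts ran from 14838969 to 17815747 in the 6 OxLDL libraries, and a floor of 3 counts corresponded to 0.172 to 0.209 CPM. Defining macrophage genes were abundant in both genotypes, as were some stromal genes, which are given below. Cd68 averaged 1241 ± 20.2 CPM in WT and 1285 ± 27.3 CPM in R150X. Adgre1, the F4/80 antigen, averaged 833 ± 15.9 CPM in WT and 769 ± 18.9 CPM in R150X. Csf1r, the receptor for the macrophage growth factor CSF1, averaged 1234 ± 15.2 CPM in WT and 1032 ± 16.7 CPM in R150X. In a principal component analysis of the 6 libraries, component 1 (46.9% of the variance) separated the genotypes and component 2 set replicate 3 of both genotypes apart from replicates 1 and 2. Same-numbered libraries of the genotypes deviated together, so a paired fit of these 6 libraries is given wherever it changes a call or moves a count by more than 1.5 times. The pairing was read from these same counts, so the paired fit is only a check on the main fit. Replicate 1 of the untreated R150X group stood apart from its replicates, and it enters the shared estimate of the spread. Without it, 2583 genes were called in the OxLDL comparison instead of 1996.

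Sex-linked genes also differed between the genotypes. Xist, the RNA of the silenced X chromosome of female cells, had 0, 0.0681 and 0.0695 CPM in WT and 345, 346 and 327 CPM in R150X, a ratio of 7641 (95% exact counting interval 2115 to 63099) from only 2 Xist reads in WT in all. Of 7 Y-linked genes tested, 4 (Ddx3y, Eif2s3y, Kdm5d and Uty) were lower in R150X and present in every library, and 1 was higher, the pseudogene Mid1-ps1 (1.18), which was named after its value was seen and whose call was lost without replicate 2 of WT or of R150X. Among the lower were Ddx3y, with 100.4, 98.1 and 83.6 CPM in WT and 60.1, 56.0 and 55.4 CPM in R150X (a log2 difference of -0.72, SE 0.0687, adjusted p = 1.61e-07), and Uty, with 33.0, 33.8 and 31.8 CPM in WT and 17.9, 18.9 and 18.3 CPM in R150X (a log2 difference of -0.84, SE 0.0718, adjusted p = 3.01e-08). Sex composition and the Gpnmb allele cannot be told apart in any genotype difference given here, and the part of sex composition in the interactions was not tested. Without genes of chromosomes X and Y, 1944 genes were called.

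In OxLDL-loaded cells the R150X allele went with many small differences and a few large ones. Of the 15338 genes tested, 1996 (13.0%) passed an adjusted p under 0.05, 935 higher in R150X (6.10%) and 1061 lower (6.92%). Every list count with OxLDL below is to be set against these shares. Those without OxLDL are to be set against 18.1% higher and 14.8% lower, and interactions against 3.13% positive and 5.19% negative. The median absolute log2 fold change of the called genes was 0.43, and 171 genes higher (1.11%) and 191 lower (1.25%) differed at least 2-fold. The libraries of the 2 genotypes did not overlap for 1973 of the called genes (98.8%), against 4601 of all genes tested (30.0%). When the 6 OxLDL libraries were fitted alone with same-numbered libraries paired, 3020 genes were called, 1492 of them higher, and they included 1971 of the 1996. Leaving out 1 OxLDL library at a time gave 1423 to 1841 called genes, and 1071 of the 1996 (53.7%) passed in all 6 of those fits. In a bulk library, fewer cells of a type and less RNA per cell cannot be told apart.

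**Figure D1:**
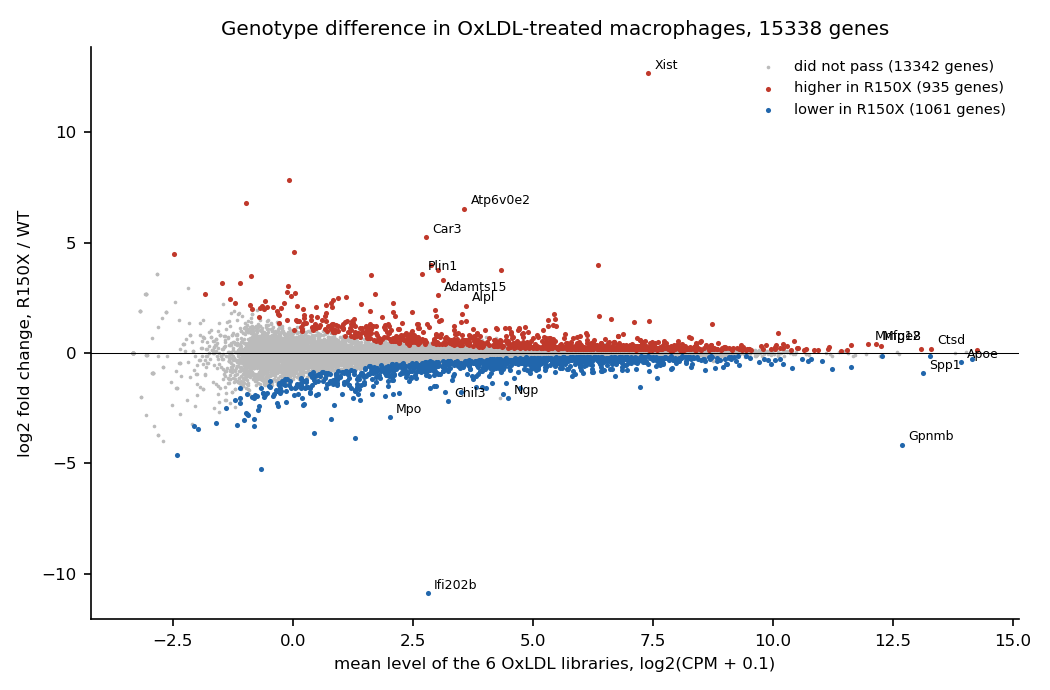
Each point is 1 of 15338 genes; the x axis is the mean level of the 6 OxLDL libraries as log2(CPM + 0.1) and the y axis the log2 fold change of R150X over WT. The 935 genes higher in R150X (red) and 1061 lower (blue) lie mostly close to 0, and Gpnmb (-4.15) stands out among abundant genes. The fitted values of Xist and Ifi202b, which are at or near 0 counts in 1 genotype, are no measure of their fold. Those of Car3 and Atp6v0e2, which have few counts in WT, are uncertain.

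The genes with the largest increases in R150X included several of fat storage, and the bone and mineral enzyme Alpl. Atp6v0e2, a subunit of the proton pump that acidifies lysosomes, held 0.313, 0.0681 and 0.348 CPM in WT and 24.0, 24.0 and 22.3 CPM in R150X (a log2 difference of 6.54, SE 0.248, adjusted p = 6.83e-14). It lies at chr6:48537615-48541801, near Gpnmb, and its WT levels are near the floor of 3 counts, so its fold is uncertain. Within 20 Mb of Gpnmb 36 of 214 tested genes (16.8%) (Gpnmb included) were called and 3.74% were called with at least a 2-fold difference, against 13.0% and 2.34% elsewhere. Over whole autosomes the share called ran from 10.7% (chromosome 5) to 15.6% (chromosome 6). The share at 2-fold ran from 1.45% (chromosome 2) to 4.07% (chromosome 18). DBA/2 sequence that flanks the allele and the allele itself cannot be told apart for genes in the window around Gpnmb. The strain label gives no number of generations, so DBA/2 sequence may also differ between the genotypes elsewhere in the genome, which was not tested. The adipocyte genes Car3 (carbonic anhydrase), Plin1 (a lipid droplet coat) and Adipoq (the hormone adiponectin) differed by 5.26, 3.58 and 3.32. Car3 had only 2, 11 and 2 counts in WT, so its fold is uncertain too. The bone and mineral enzyme Alpl held 4.76, 3.61 and 4.94 CPM in WT and 18.2, 20.4 and 20.4 CPM in R150X (a log2 difference of 2.15, SE 0.108, adjusted p = 6.9e-12), and the leptin receptor Lepr held 1.88, 1.23 and 1.18 CPM in WT and 7.72, 6.75 and 6.09 CPM in R150X (a log2 difference of 2.24, SE 0.205, adjusted p = 8.27e-08).

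Other increases at low levels were those of the proteoglycan-cleaving protease Adamts15 (2.62), the chemoattractant Rarres2 (1.93), the cytoskeletal adaptor Epb41l4b (1.87), the interferon-inducible GTPase Iigp1 (1.84) and the leukocyte receptor Lilra6 (2.65). Reads of Lilra6 may be shared with related genes. All 5 were at most 13.9 CPM on average in R150X.

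The largest decreases included several granule genes of neutrophils and their precursors. Mpo (myeloperoxidase) held 7.83, 7.08 and 6.05 CPM in WT and 0.941, 1.20 and 0.670 CPM in R150X (a log2 difference of -2.88, SE 0.222, adjusted p = 5.94e-09). Ngp, a neutrophil granule protein, held 37.0, 35.8 and 34.7 CPM in WT and 8.09, 9.04 and 8.83 CPM in R150X (a log2 difference of -2.05, SE 0.0738, adjusted p = 2.73e-14). The calcium-binding alarmins S100a9 and S100a8 differed by -1.86 and -1.56, the iron-scavenging protein Lcn2 by -1.58 and the neutrophil collagenase Mmp8 by -1.79. The chitinase-like gene Chil3, which has close relatives that can share its reads, differed by -2.18. Outside that group, the neutrophil-attracting chemokine Cxcl5 held 44.4, 37.6 and 37.8 CPM in WT and 15.7, 13.7 and 10.3 CPM in R150X (a log2 difference of -1.59, SE 0.101, adjusted p = 3.32e-10), and the platelet basic protein gene Ppbp differed by -1.76 and the amino acid transporter Slc36a2 by -1.75.

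Ifi202b, an interferon-inducible DNA-binding protein gene on chromosome 1 (chr1:173962568-173982744), held 14.3, 15.04 and 12.2 CPM in WT and 0, 0 and 0 CPM in R150X. Against a floor of 3 counts over the R150X group it was at least 230.2-fold lower. Its family holds close copies, and reads shared with them make this count uncertain. The part of shared reads in the difference was not tested. The strain label is of a cross bred back for an unstated number of generations. Strain sequence may therefore differ between the genotypes at this locus too, which was not tested. Of the 13 tested members of the Ifi200 family Ifi202b alone passed, and the median over all 13, Ifi202b included, was 0.13 against 0.002 for all genes tested.

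**Figure D2:**
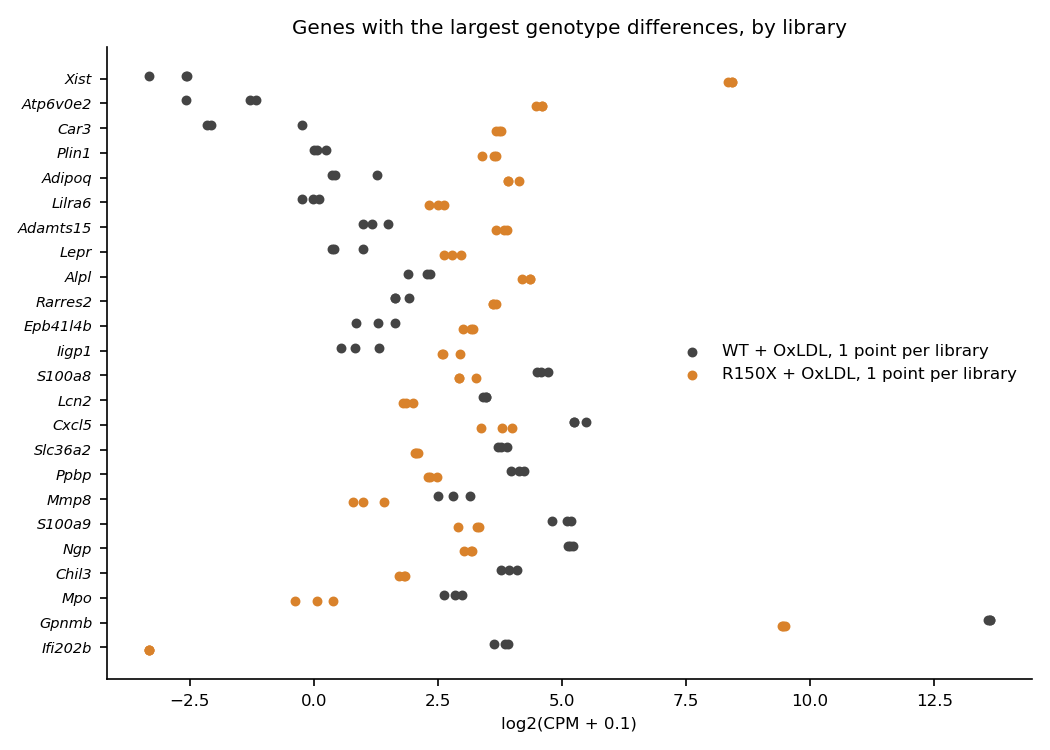
Levels of the 24 genes with the largest differences, 1 point per OxLDL library (dark WT, orange R150X), on a log2(CPM + 0.1) axis. The genes were chosen for size among those whose libraries did not overlap between the genotypes, so the separation is fixed by that choice. Ifi202b has 0 counts in R150X.

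Measured by absolute level, the genes that differed most included secreted and lysosomal proteins of macrophages. Spp1 (osteopontin), Apoe (apolipoprotein E, which carries cholesterol out of macrophages), Lyz2 (lysozyme), Fn1 (fibronectin) and the nuclear RNA Neat1 were lower in R150X. Apoe held 17348, 16769.9 and 19002 CPM in WT and 12268, 13064 and 14636 CPM in R150X (a log2 difference of -0.41, SE 0.0721, adjusted p = 0.000393), so the lowest WT library stood above the highest R150X library. Lyz2 differed by -0.25, Fn1 by -0.65 and Neat1 by -0.71. Mfge8, which bridges dying cells to integrins, held 3894, 3848 and 4085 CPM in WT and 5086, 5156 and 5321 CPM in R150X (a log2 difference of 0.40, SE 0.0384, adjusted p = 2.01e-07) and was higher, as were the elastase Mmp12 (0.39), the lysosomal protease Ctsd (0.20) and prosaposin Psap (0.14). With these abundant genes, differences as small as the 0.14 of Psap passed.

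Genes of the amino acid stress response were more often higher in R150X with OxLDL and more often lower without it. ATF4 is a transcription factor whose protein is made when amino acids are short or the endoplasmic reticulum is stressed, and it switches on amino acid importers, serine and asparagine synthesis and the tRNA synthetases that load amino acids. With OxLDL, 20 of 37 genes of this response were higher in R150X and 3 lower, with a median log2 fold change of 0.19 against 0.002 for all genes tested. In untreated cells, where 18.1% of all genes were higher and 14.8% lower, 5 were higher and 18 lower (median -0.18). The difference between the treatments was itself tested as an interaction, the genotype difference with OxLDL minus that without. It was positive for 22 members and negative for 1, where 3.13% of all genes had a positive and 5.19% a negative interaction. Scaled by library size alone the interaction was positive for 26 members and negative for 1.

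Among regulators, Trib3, a pseudokinase that feeds back on ATF4, held 18.2, 14.9 and 15.02 CPM in WT and 25.7, 26.4 and 29.5 CPM in R150X (a log2 difference of 0.76, SE 0.0937, adjusted p = 5.47e-06). It was lower in untreated R150X cells (-0.39), and the interaction was 1.15 (adjusted p = 7e-06). Atf4 itself held 172, 173 and 174 CPM in WT and 252, 258 and 253 CPM in R150X (a log2 difference of 0.56, SE 0.0496, adjusted p = 5.75e-08) and was higher in both treatments, by 0.27 in untreated cells. The related factor Atf5 (0.47) and the stress hormone Gdf15 (0.75) were higher as well. Lower in R150X were the mTORC1 inhibitor Ddit4 (-0.82), the folate enzyme Aldh1l2 (-0.62) and the factor Cebpg (-0.30). Ddit4 also belongs to the hypoxia genes.

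Among amino acid enzymes and transporters, the cystine importer Slc7a11 held 65.3, 64.1 and 61.3 CPM in WT and 90.5, 97.6 and 82.8 CPM in R150X (a log2 difference of 0.51, SE 0.0741, adjusted p = 4.8e-05). Asparagine synthetase Asns differed by 0.46 with OxLDL and by -0.42 without. Phgdh, the first enzyme of serine synthesis, differed by 0.39 and -0.52 in the same order. The mitochondrial folate enzyme Mthfd2 (0.58) and Slc3a2, the partner chain of Slc7a11 (0.32), were higher with OxLDL. The leucine importer Slc7a5 did not pass with OxLDL (adjusted p = 0.93) and differed by -0.43 without it.

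Among tRNA synthetases, Aars for alanine held 154, 164 and 169.6 CPM in WT and 222, 222 and 241 CPM in R150X (a log2 difference of 0.49, SE 0.0494, adjusted p = 3.53e-07), while in untreated cells it did not pass (adjusted p = 0.0606), and its interaction was 0.61 (adjusted p = 7.47e-06). Also higher with OxLDL were Cars (0.40, cysteine), Sars (0.35, serine), Eprs (0.27, glutamate and proline), Mars (0.24, methionine), Nars (0.23, asparagine), Yars (0.23, tyrosine) and Wars (0.18, tryptophan). The call of Mars was lost without WT replicate 1 or 2, that of Yars when replicate 2 of WT, or 2 or 3 of R150X, was left out, and that of Wars without any 1 OxLDL library other than WT replicate 3. These are all the synthetases of the list that passed, and the members given here by fold change alone were chosen after their values were seen.

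**Figure D3:**
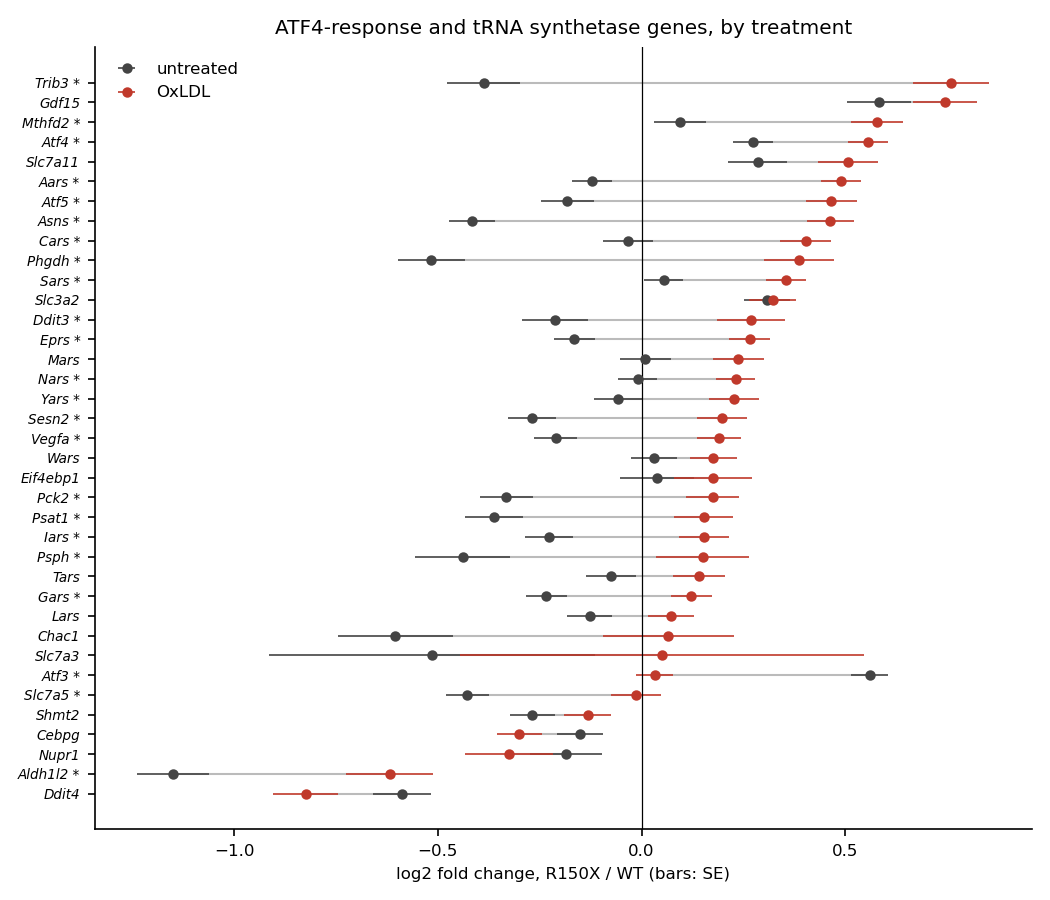
Log2 fold change of R150X over WT for the 37 genes of the ATF4 response, with OxLDL (red) and without (dark), bars showing the SE and a star marking an interaction at an adjusted p under 0.05. Most red points lie right of 0 and to the right of the dark point of the same gene, as for Trib3 (0.76 and -0.39).

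The promoters of these genes are shown to describe the list. RefSeq promoters on GRCm38.p6, from 250 bases before to 50 after the annotated start, matched 27 of the 37 genes. They were searched on both strands for TGATGNAA (reverse TTNCATCA), the composite element that ATF4 binds with C/EBP proteins. It was found in 12 of 27 (44.4%), in 311 of 10851 promoters of tested genes (2.87%) and in 3.97% of all 32851 promoters. The list holds genes of the ATF4 response by choice, so this contrast is not a result of these data. Among members called higher, 5 of 15 with a promoter held it (33.3%), a smaller share than in the whole list. They were Trib3, Asns, Slc7a11, Aars and Yars, and members that did not pass, such as Chac1 and Atf3, held it too. A match describes these letters and is not evidence of binding. Windows of 40 bases are printed for the members called higher, 5′ to 3′ on the gene's strand, with the match in capitals.
Trib3 (chr2:152344023-152344062, minus): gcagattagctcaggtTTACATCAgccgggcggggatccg
Asns (chr6:7693209-7693248, minus): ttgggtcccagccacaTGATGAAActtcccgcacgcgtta
Slc7a11 (chr3:50443656-50443695, minus): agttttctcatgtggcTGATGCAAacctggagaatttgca
Aars (chr8:111033714-111033753, plus): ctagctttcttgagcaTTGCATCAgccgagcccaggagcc
Yars (chr4:129189890-129189929, plus): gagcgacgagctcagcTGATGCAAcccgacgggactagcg

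Genes that coat and empty lipid droplets were more often higher than lower in R150X foam cells. Of 19 tested, 7 were higher and 1 lower (median 0.18), against 12 higher and 3 lower in untreated cells (median 0.33). The interaction was negative for 7 and positive for 3 (5 and 3 by library size alone). Mgll, monoacylglycerol lipase, the last step in breaking down stored fat, held 237, 245 and 258 CPM in WT and 585, 605 and 631 CPM in R150X (a log2 difference of 1.30, SE 0.0503, adjusted p = 8.88e-14). The droplet coat Plin4 held 4.76, 6.74 and 7.02 CPM in WT and 12.3, 13.8 and 16.7 CPM in R150X (a log2 difference of 1.21, SE 0.16, adjusted p = 1.24e-05), and the lipase inhibitor G0s2 differed by 1.64 with OxLDL and by an interaction of 1.78. The main coat of macrophage droplets, Plin2, differed by 0.15, and its relative Plin3 by 0.24. The call of Plin2 was lost when replicate 2 of WT, or 1 or 2 of R150X, was left out, and that of Plin3 without WT replicate 1 or R150X replicate 3. Angptl4, a secreted inhibitor of lipoprotein lipase, was the 1 member that fell (-0.40).

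Genes tied to PPARγ and the adipocyte lineage were higher in 6 of 12 cases and lower in 1 (median 0.30). Beside Car3 and Adipoq, the higher ones were the glycerol channel Aqp7 (2.10), the insulin-responsive Trarg1 (0.83), the cysteine dioxygenase Cdo1 (0.82) and Pparg itself (0.26), whose call was lost when replicate 2 of WT, or 2 or 3 of R150X, was left out. The fatty acid carrier Fabp5 fell (-0.32), and its relative Fabp4, with means of 164 (WT) and 166 CPM (R150X), did not pass (adjusted p = 0.854). The desaturase Scd1, which makes oleate for storage, held 24.1, 22.7 and 20.9 CPM in WT and 65.1, 63.2 and 66.9 CPM in R150X (a log2 difference of 1.52, SE 0.068, adjusted p = 9.8e-13), and differed by 0.31 in untreated cells (interaction 1.21, adjusted p = 7.79e-08).

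LXR targets and cholesterol export genes that passed in the main fit were lower. Of 14 tested, 10 did not pass, 4 were lower and 0 higher (median -0.11), against 7 higher and 3 lower in untreated cells. The count of higher members was 2 without WT replicate 3, 1 without R150X replicate 1, 2 without the untreated R150X replicate 1 and 3 in the paired fit, where 6 were lower. The lower ones were Apoe, the phospholipid transfer protein Pltp (-0.62), the LDL receptor-degrading ligase Mylip (-0.75) and the cholesterol-sensitive GTPase Arl4c (-0.41). Pltp held 601, 598 and 616 CPM in WT and 395, 407 and 382 CPM in R150X, with no overlap between the genotypes. The interaction was negative for 7 of the 14 genes and positive for 0 (6 and 0 by library size alone).

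Uptake receptors differed in both directions, with 3 of 17 higher (1 without WT replicate 1 or R150X replicate 3) and 4 lower (median -0.13). Cd36, a receptor for oxidised lipoprotein, held 4633, 4442 and 4055 CPM in WT and 5642, 5541 and 5151 CPM in R150X and was higher (0.32), by less than in untreated cells (0.98, interaction -0.66, adjusted p = 1.58e-06). Cxcl16, which doubles as a scavenger receptor and a chemokine, held 78.6, 78.7 and 74.5 CPM in WT and 41.2, 39.6 and 39.6 CPM in R150X (a log2 difference of -0.95, SE 0.0538, adjusted p = 5.15e-11), and the lipoprotein receptor Vldlr differed by -0.72. Lrp1, a large endocytic receptor at 5057 CPM in WT, did not pass (adjusted p = 0.33), but did in the paired fit (adjusted p = 1.85e-05). Of 25 genes of fatty acid oxidation 3 were lower and 0 higher, a share of 12% called against 13.0% of all genes tested (median 0.0072), so no direction is read from this list. The lower ones included the proton leak protein Ucp2 (-0.48) and the gatekeeper of mitochondrial import Cpt1a (-0.30). In the paired fit, and without the untreated R150X replicate 1, 1 gene of that list was higher.

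Lysosomal genes that passed were more often higher than lower in R150X, by small amounts. Of 39 hydrolases and membrane proteins, 12 were higher and 4 lower (median 0.08), and their summed level was 71069 to 72750.4 CPM in WT and 75912 to 76630.2 CPM in R150X. The collagen-degrading cathepsin Ctsk held 74.1, 74.9 and 66.2 CPM in WT and 99.3, 103 and 93.6 CPM in R150X (a log2 difference of 0.46, SE 0.0637, adjusted p = 2.38e-05), and Ctsd held 9484, 8982 and 9575 CPM in WT and 10985, 10633 and 10534 CPM in R150X (a log2 difference of 0.20, SE 0.0395, adjusted p = 0.00144). Among the lower members were the cathepsins Ctsc (-0.39) and Ctsh (-0.29), and the abundant Ctsb did not pass (adjusted p = 0.194), but did in the paired fit (adjusted p = 0.00122). In untreated cells 27 of the 39 were higher and 2 lower. The interaction was negative for 15 and positive for 0 (9 and 2 by library size alone).

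Subunits of the lysosomal proton pump were higher in 8 of 19 cases and lower in 0 (median 0.14), and in 14 cases in the paired fit. The higher ones include Atp6v0e2, which lies in the window around Gpnmb. In untreated cells 18 were higher and 0 lower (median 0.40), and the interaction was negative for 7 and positive for 1 (4 and 1 by library size alone). The positive count was 0 without replicate 1 or 2 of WT, or replicate 2 or 3 of untreated WT. Beside Atp6v0e2, the membrane subunits Atp6v0a1 and Tcirg1 held 984, 1026 and 1046 CPM in WT and 1345, 1353 and 1376 CPM in R150X (a log2 difference of 0.41, SE 0.0411, adjusted p = 2.7e-07) and 907, 936 and 1004 CPM in WT and 1206, 1204 and 1220.0 CPM in R150X (a log2 difference of 0.35, SE 0.0425, adjusted p = 4.55e-06), and the catalytic-domain subunit Atp6v1b2 differed by 0.22. The autophagy receptors Sqstm1 (0.38) and Optn (0.41) were higher too.

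Promoters of lysosomal genes often hold an E-box bound by the MiT/TFE factors, searched here as TCANGTGA (reverse TCACNTGA) in the same windows. It was found in 7 of 30 lysosomal promoters (23.3%), 4 of 13 proton pump promoters (30.8%), 4.91% of the promoters of tested genes and 4.18% of all promoters. Where N is C the element reads the same on both strands, and a promoter was counted once however often it matched. Of the 12 lysosomal genes called higher, 3 held it, a share close to the 23.3% of the whole list. Ctss, which was lower, held it, as did members that did not pass, such as Ctsa, Tpp1 and Cln3. The pump subunits Atp6v0d1 and Atp6v0e, which did not pass, held it too. Both lists hold lysosomal genes by choice, so the contrast with other promoters is not a result of these data. A match is not evidence of binding. Examples are printed for an abundant lysosomal gene and a pump subunit that were both higher in R150X, with the match in capitals. The call of the latter, Atp6v0c (0.21), was lost when replicate 1 of WT, or 2 or 3 of R150X, was left out.
Ctsd (chr7:142387903-142387942, minus): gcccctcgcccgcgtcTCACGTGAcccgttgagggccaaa
Atp6v0c (chr17:24169444-24169483, minus): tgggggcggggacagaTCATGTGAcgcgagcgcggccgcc

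Genes that mark lipid-associated macrophages, the state in which Gpnmb itself is usually found, divided. Of 23 tested, 10 were higher and 5 lower (median 0.13). The galactoside-binding lectin Lgals3 (0.36), the actin-capping protein Capg (0.31), the annexin Anxa1 (0.30) and Mmp12 were among those higher. Spp1, Apoe, Fabp5 and the receptor kinase Axl, with 293, 285 and 308 CPM in WT and 184, 183 and 191 CPM in R150X (a log2 difference of -0.67, SE 0.0471, adjusted p = 1.51e-09), were among those lower. The lectin Clec7a was also higher (0.28). In untreated cells 16 were higher and 3 lower, and the interaction was negative for 18 and positive for 0 (16 and 1 by library size alone). Of 10 annexins, 4 were higher and 0 lower, led by Anxa4 (0.45).

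Genes for recognising dying cells were more often lower than higher, with the secreted bridge Mfge8 and the integrin chain Itgb3 among the exceptions. Of 24 tested, 10 were lower and 4 higher (2 without WT replicate 1 or R150X replicate 3), with a median of -0.15. Itgb3 held 68.8, 78.5 and 81.3 CPM in WT and 185, 196 and 216 CPM in R150X (a log2 difference of 1.38, SE 0.0727, adjusted p = 1.46e-11), while its partner chain Itgav, with which it forms the receptor for Mfge8, held 228, 241 and 215 CPM in WT and 176, 172 and 158 CPM in R150X (a log2 difference of -0.43, SE 0.0601, adjusted p = 2.38e-05). The opsonin C1qa of the classical complement pathway held 464, 472 and 514 CPM in WT and 262, 277 and 318 CPM in R150X (a log2 difference of -0.76, SE 0.0769, adjusted p = 3.78e-07), and its partners C1qb and C1qc differed by -0.50 and -0.43. All 3 C1q chains passed as lower. The thrombospondin Thbs1, another bridge to dying cells, fell by 0.67 on the log2 scale.

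Complement genes as a whole were lower in 7 of 18 cases and higher in 3 (median -0.14). Apart from C1q, the lower ones included the central component C3 (-0.32), the anaphylatoxin receptor C3ar1 (-0.31), and the integrin chain Itgam of complement receptor 3 (-0.35). Among the 3 higher was C4b, with 7.39, 5.99 and 5.77 CPM in WT and 16.7, 18.7 and 17.7 CPM in R150X (a log2 difference of 1.47, SE 0.116, adjusted p = 9.37e-09). Its interaction was 0.98 (adjusted p = 0.000404), so the difference was larger with OxLDL. Over the list 5 were higher and 2 lower in untreated cells, and the interaction was negative for 7 and positive for 1 (6 and 1 by library size alone). C4b has a near-identical copy, C4a, with which it can share reads.

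Surface genes of monocytes and macrophages were lower more often than higher. Of 23 identity genes, 9 were lower and 1 higher (median -0.07); the higher count was 0 without R150X replicate 1 or 2 and 4 without the untreated R150X replicate 1, and 4 in the paired fit. Csf1r differed by -0.26, with an interaction of -0.50 (adjusted p = 2.63e-06). Ccr2, the receptor that brings monocytes to inflamed vessels, held 19.7, 20.2 and 16.2 CPM in WT and 10.04, 9.61 and 7.91 CPM in R150X (a log2 difference of -1.03, SE 0.115, adjusted p = 1.57e-06), and the patrolling-monocyte receptor Cx3cr1 differed by -0.81. Adgre1 did not pass, but did in the paired fit (adjusted p = 0.000454).

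Receptors for antibody and their signalling partners were lower in 4 of 11 cases and higher in 1 (0 when WT or R150X replicate 2 or 3 was left out), with a median of -0.08. Fcgr1, the high-affinity receptor, held 107, 106 and 101 CPM in WT and 70.6, 66.3 and 64.5 CPM in R150X (a log2 difference of -0.64, SE 0.0514, adjusted p = 1.19e-08). The Src-family kinase Fgr held 93.0, 96.8 and 104 CPM in WT and 51.8, 54.5 and 56.3 CPM in R150X (a log2 difference of -0.85, SE 0.0569, adjusted p = 6.66e-10), and the inhibitory receptor Fcgr2b differed by -0.33. Low-affinity Fcgr3 did not pass (adjusted p = 0.576).

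The tetraspan MS4A proteins, a surface family clustered in the genome, were lower in 6 of 8 cases and higher in 0 (median -0.51). Ms4a7 held 388, 371 and 369 CPM in WT and 261, 268 and 269.9 CPM in R150X (a log2 difference of -0.50, SE 0.0468, adjusted p = 1.34e-07), and Ms4a4a differed by -0.69, Ms4a6d by -0.48 and Ms4a14 by -0.40. Leaving out any 1 OxLDL library left this count at 6. Members of the Ms4a6 group are close copies that can share reads. In untreated cells 7 of the 8 were lower.

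Chemokines and their receptors went both ways. Of 26, 7 were higher (4 when WT replicate 1 or 2, or R150X replicate 3, was left out) and 10 lower (median -0.30). The stromal chemokine Cxcl12 held 769, 785 and 757 CPM in WT and 1415, 1442 and 1455 CPM in R150X (a log2 difference of 0.90, SE 0.0373, adjusted p = 2.64e-13), while its receptor Cxcr4 held 77.2, 78.0 and 71.8 CPM in WT and 34.7, 38.6 and 35.9 CPM in R150X (a log2 difference of -1.06, SE 0.0613, adjusted p = 7.01e-11). Ccl6 was higher (0.71), as were the inflammatory Ccl3 (0.74) and Ccl4 (0.50). The monocyte attractants Ccl2 and Ccl7 were lower (-0.93 and -1.04) and can share reads with each other's relatives. Of 20 cytokines, 2 were higher and 2 lower, near the shares of all genes tested (6.10% and 6.92%), so no direction is read from this list. The interleukin-1 antagonist Il1rn held 87.0, 82.4 and 76.1 CPM in WT and 140.4, 139.5 and 135 CPM in R150X (a log2 difference of 0.76, SE 0.0542, adjusted p = 1.86e-09). Il1b held 2.76, 2.45 and 2.29 CPM in WT and 1.69, 0.801 and 0.791 CPM in R150X (a log2 difference of -1.20, SE 0.225, adjusted p = 0.000735) and was higher in untreated R150X cells (1.07), with an interaction of -2.28 (adjusted p = 2.09e-06).

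Genes of the alternative, interleukin-4-linked activation state fell in 5 of 15 cases and rose in 3 (1 without R150X replicate 2), with a median of -0.15. The interleukin-4 receptor Il4ra held 139, 141 and 147 CPM in WT and 89.2, 93.9 and 90.7 CPM in R150X (a log2 difference of -0.64, SE 0.0511, adjusted p = 1.05e-08), and the crosslinking enzyme Tgm2 differed by -0.54. Socs3, a feedback inhibitor of cytokine signalling, differed by -0.79, and Mefv, the sensor pyrin, by -1.14.

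The branches of antigen presentation differed in direction. Of 20 MHC class I genes, which display peptides from inside the cell, 7 were higher and 0 lower (median 0.16). H2-K1 held 602, 603 and 614 CPM in WT and 703, 716 and 744 CPM in R150X (a log2 difference of 0.25, SE 0.0472, adjusted p = 0.000827) and H2-D1 differed by 0.27. Related H2 genes can share reads, and alleles that differ between DBA/2 and C57BL/6 can map unequally; whether they did was not tested. Of 12 MHC class II genes, 6 were lower and 0 higher (median -0.23), and H2-DMa, which loads peptides, held 40.6, 36.9 and 41.0 CPM in WT and 28.6, 33.4 and 28.6 CPM in R150X (a log2 difference of -0.39, SE 0.0815, adjusted p = 0.00238). The count of lower class II genes was 2 without WT replicate 1 and 3 when WT or R150X replicate 2 or 3 was left out. In untreated cells 9 were higher and 0 lower, and the interaction was negative for 6 (6 by library size alone).

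Interferon-induced antiviral genes were higher in 6 of 34 cases and lower in 2 (median 0.10). Ifit3 held 1.13, 1.29 and 0.904 CPM in WT and 3.14, 1.60 and 2.31 CPM in R150X (a log2 difference of 1.06, SE 0.241, adjusted p = 0.00424), and Phf11d and Cmpk2 differed by 0.73 and 0.54. The number lower was 1 without WT replicate 1, 2 or 3, R150X replicate 1 or 3, or any untreated WT replicate. Parp14, at -0.31, was lower in each of those fits.

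Antioxidant genes under NRF2, which answers oxidised lipids, differed in few cases with OxLDL, where 4 of 27 were higher and 3 lower (median -0.03), although 22 had been higher and 1 lower in untreated cells. The lower count was 7 without the untreated R150X replicate 1 and 9 in the paired fit. The interaction was negative for 19 of the 27 and positive for 0 (16 and 1 by library size alone). Glutathione reductase Gsr held 182, 176 and 178 CPM in WT and 134, 138 and 132 CPM in R150X (a log2 difference of -0.41, SE 0.0517, adjusted p = 8.48e-06), against a difference of 0.30 in untreated cells. The heme-degrading enzyme Hmox1 differed by -0.22 and the redox-responsive Osgin1 by 0.40.

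Genes of glycolysis and hypoxia were lower in 13 of 33 cases and higher in 4 (median -0.15). The lower count was 8 without WT replicate 3 and 7 without R150X replicate 2, and the higher count 2 when WT replicate 1 or 2, or R150X replicate 3, was left out. The lactate exporter Slc16a3 held 76.3, 77.4 and 88.4 CPM in WT and 48.6, 54.5 and 56.6 CPM in R150X (a log2 difference of -0.60, SE 0.0698, adjusted p = 2.65e-06), the mitophagy receptor Bnip3 differed by -0.60 and the glucose transporter Slc2a3 by -0.80. Hif1a, the oxygen-regulated factor itself, differed by -0.32. The macrophage hexokinase Hk3 was higher (0.38), and pyruvate kinase Pkm did not pass (adjusted p = 0.215) except in the paired fit (adjusted p = 0.00277).

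Immediate-early genes, which cells switch on within minutes of a stimulus, were higher in 8 of 26 cases and lower in 3 (5 in the paired fit), with a median of 0.13. The kinase phosphatase Dusp1 held 48.2, 49.0 and 53.1 CPM in WT and 147, 143 and 151 CPM in R150X (a log2 difference of 1.55, SE 0.0645, adjusted p = 2.64e-13), and the factor Egr1 held 23.7, 24.2 and 24.96 CPM in WT and 51.1, 51.1 and 48.0 CPM in R150X (a log2 difference of 1.04, SE 0.0696, adjusted p = 6.66e-10). Egr1 differed by 0.37 in untreated cells (interaction 0.67, adjusted p = 9.15e-05). Dusp4 and Klf6 were higher by 0.55 and 0.42.

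**Figure D4:**
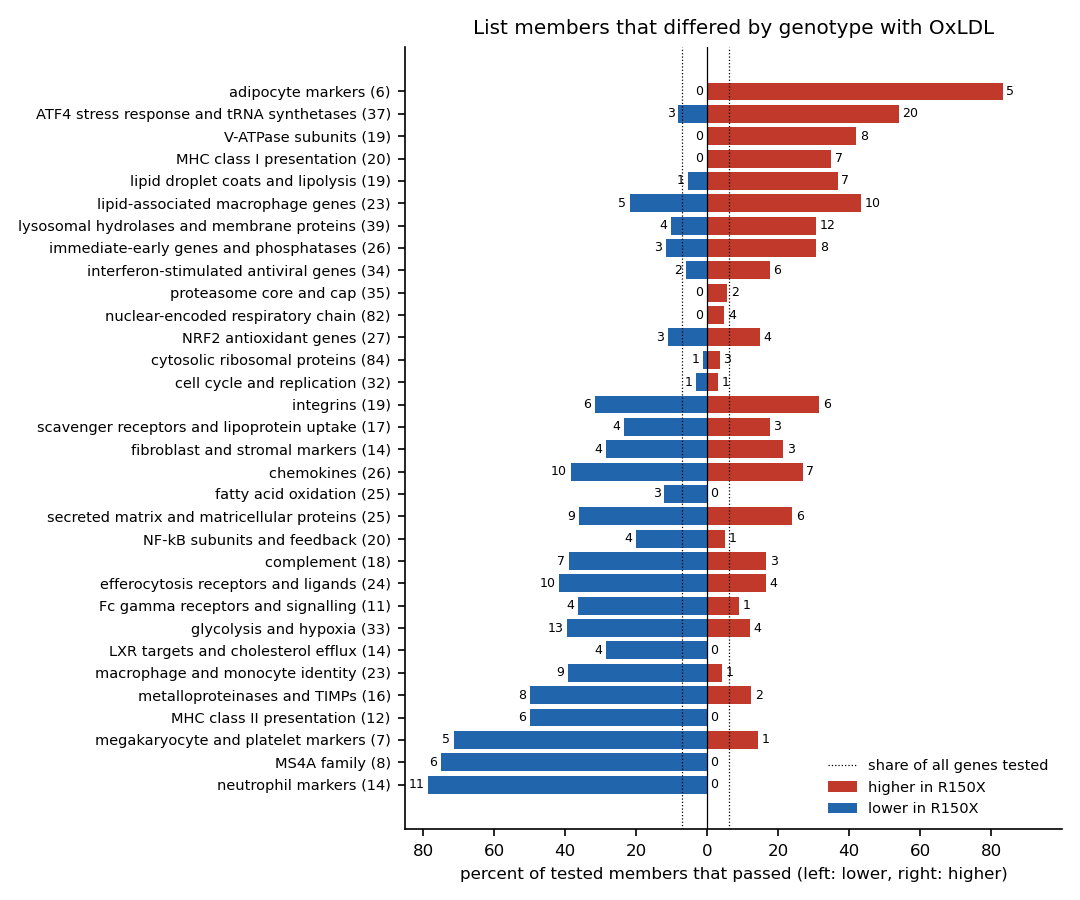
Share of the tested members of 32 gene lists (number tested in parentheses) that were higher (right, red) or lower (left, blue) in R150X with OxLDL, with counts at the bar ends and dotted lines at 6.10% and 6.92%, the shares of all genes. The ATF4 list (20 higher, 3 lower) stands near the top and neutrophil markers (0 higher, 11 lower) at the bottom.

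Matrix genes were lower somewhat more often than higher. Of 25 secreted matrix and matricellular proteins, 9 were lower and 6 higher (3 without WT replicate 1 and 2 without WT replicate 2), with a median of -0.08 and a summed level of 24776 to 25354 CPM in WT and 17585 to 17787 CPM in R150X. Spp1 and Fn1 make up much of that sum. Tgfbi, a collagen-binding protein induced by TGF-β, held 268, 260.1 and 271 CPM in WT and 117, 119.6 and 125 CPM in R150X (a log2 difference of -1.15, SE 0.0455, adjusted p = 1.32e-13). Thbs1 held 1657, 1672 and 1665 CPM in WT and 1060.2, 1047 and 1031 CPM in R150X (a log2 difference of -0.67, SE 0.0448, adjusted p = 6.66e-10), and Ecm1 differed by -0.72 and the proteoglycan Vcan by -0.75. The hexameric glycoprotein Tnc, typical of remodelling tissue, was higher, with 122, 131 and 138 CPM in WT and 179, 183 and 193 CPM in R150X (a log2 difference of 0.50, SE 0.0551, adjusted p = 1.22e-06). It was lower in untreated R150X cells (-0.40), and its interaction was 0.90 (adjusted p = 1.58e-07). In untreated cells 18 of these genes were lower and 2 higher, and the interaction was positive for 10 and negative for 3 (12 and 2 by library size alone).

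Proteases that cut matrix, and their inhibitors, were lower in 8 of 16 cases and higher in 2 (1 when WT replicate 1 or 2, or R150X replicate 3, was left out), with a median of -0.27. Collagenase Mmp13 held 245, 229.8 and 216 CPM in WT and 156, 156 and 142 CPM in R150X (a log2 difference of -0.61, SE 0.0538, adjusted p = 5.44e-08) and the membrane-bound Mmp14 differed by -0.45. The inhibitor Timp1 held 44.7, 42.6 and 39.98 CPM in WT and 26.2, 24.9 and 22.9 CPM in R150X (a log2 difference of -0.78, SE 0.0775, adjusted p = 2.68e-07). Of 19 integrins and partners, 6 were higher and 6 lower (median -0.11), Itgb3 being the highest, and the leukocyte chain Itgal (-0.44) and the laminin-binding Itga6 (-0.52) among the lower. The abundant Itgb1 did not pass (adjusted p = 0.71).

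Few housekeeping genes passed with OxLDL. Of 84 cytosolic ribosomal proteins 3 were higher and 1 lower (medians 0.05 with OxLDL and 0.23 without), of 82 nuclear-encoded respiratory chain genes 4 were higher and 0 lower, and of 35 proteasome genes 2 were higher and 0 lower. In untreated cells 53, 66 and 27 of them were higher, and 33, 53 and 12 when scaled by library size alone. Single libraries and the paired fit moved these small counts: ribosomal genes higher ranged from 1 to 9 when 1 library was left out, respiratory genes from 1 to 5 and proteasome genes from 1 to 4, and the paired fit gave 13, 14 and 6. Of 32 cell cycle genes 1 was higher and 1 lower (median 0.05), and neither count held when single libraries were left out. The proteasome cap gene Psmd8 held 224, 228 and 224 CPM in WT and 286, 295 and 297 CPM in R150X (a log2 difference of 0.38, SE 0.0533, adjusted p = 2.9e-05).

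Markers of cells other than macrophages differed between the genotypes and are given with their summed levels. Neutrophil markers were lower in 11 of 14 cases and higher in 0, with a summed level of 247 to 259.8 CPM in WT and 118 to 120.4 CPM in R150X, so all 3 R150X libraries were below all WT libraries. Adipocyte markers were higher in 5 of 6 cases and lower in 0, with a summed level of 161 to 179 CPM in WT and 203 to 228 CPM in R150X, most of it Fabp4, which macrophages also express. Among defining adipocyte markers, Cidec had 1, 3 and 0 counts in WT and 4, 10 and 2 in R150X, and Cfd 0, 0 and 2 in WT and 5, 3 and 5 in R150X. Plin1, Adipoq and Car3 are themselves defining adipocyte markers, and Cidec and Cfd had few counts in every library. The part of adipocytes in these levels was not tested.

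Megakaryocyte and platelet markers were lower in 5 of 7 cases (3 without WT replicate 2) and higher in 1 (0 without WT replicate 1 or R150X replicate 1), with a summed level of 113 to 119 CPM in WT and 92.3 to 98.2 CPM in R150X. In untreated cells 4 had been higher and 0 lower, and the interaction was negative for 6 (5 by library size alone). Ppbp held 17.5, 15.6 and 18.7 CPM in WT and 4.83, 5.49 and 4.99 CPM in R150X with OxLDL (a log2 difference of -1.76, SE 0.122, adjusted p = 1.19e-09), was higher in untreated R150X cells (2.10) and had the most negative interaction of these markers (-3.86, adjusted p = 1.47e-10). The integrin chain Itga2b held 14.7, 12.2 and 14.3 CPM in WT and 6.08, 5.66 and 5.97 CPM in R150X (a log2 difference of -1.22, SE 0.122, adjusted p = 2.96e-07) and reversed likewise (untreated 1.00, interaction -2.22). The platelet factor Pf4 differed by -0.59, and Gp1bb, a defining platelet receptor, had 0 counts in all 6 libraries.

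Stromal genes were abundant in both genotypes. Of 14 fibroblast and stromal markers, 3 were higher and 4 lower (7 in the paired fit), with a median of -0.13 and a summed level of 7723 to 8516 CPM in WT and 7600.4 to 8046 CPM in R150X. The collagen chain Col1a1 held 2181, 2346 and 2567 CPM in WT and 1768, 1844 and 1884 CPM in R150X (a log2 difference of -0.37, SE 0.045, adjusted p = 4.94e-06), and Col1a2 differed by -0.28. Dcn, a small matrix proteoglycan, held 51.1, 46.2 and 43.0 CPM in WT and 24.9, 22.3 and 21.6 CPM in R150X (a log2 difference of -1.03, SE 0.085, adjusted p = 1.73e-08). Cxcl12 and Lepr, which mark marrow stroma, had the largest increases of the list, while Pdgfra did not pass (adjusted p = 0.943). Col1a1 differed by -0.80 in untreated cells, and over the list the interaction was positive for 9 and negative for 1 (11 and 0 by library size alone). The part of stromal cells in the matrix genes, Cxcl12 and Lepr was not tested. Markers of T and NK cells, erythroid cells and mast cells were at most 0.487, 0.417 and 0.400 CPM in any OxLDL library for their defining genes. Of defining genes of other cells, the endothelial Cdh5 reached 73.6 CPM and the B cell gene Cd79b 2.29 CPM. The 4 tested genes of the longer B cell list summed to 117 to 121 CPM in WT and 125 to 131 CPM in R150X.

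**Figure D5:**
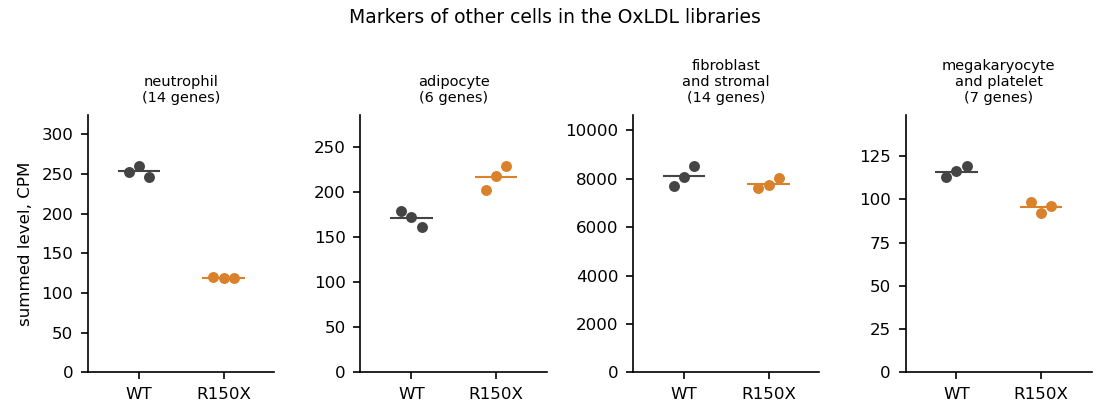
Summed level in CPM of the tested markers of 4 other cell types in each OxLDL library (points) with the mean of 3 libraries (line), every axis starting at 0. Neutrophil markers sum to 247 to 259.8 CPM in WT and 118 to 120.4 CPM in R150X, while stromal markers overlap between the genotypes.

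How far the genotype difference depended on OxLDL was tested for every gene. Of the 15338 genes, 1276 (8.32%) had an interaction, 480 positive and 796 negative, and 878 positive and 442 negative when scaled by library size alone, and this balance therefore changed with the scaling. Without OxLDL 5056 genes (33.0%) were called, 2780 higher and 2276 lower, and 1849 higher and 3271 lower when scaled by library size alone. Of the 1996 genes called with OxLDL, 1341 (67.2%) were called without it too, which is 26.5% of the untreated calls. Among these, 1244 differed in the same direction and 97 in opposite directions, 41 of them higher with OxLDL and lower without. Another 196 called genes had not passed without OxLDL and had an interaction, 92 higher and 104 lower. These 2 genotype comparisons share no library.

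Among genes named for the size of their interaction, Xist aside, the most positive were G0s2 (1.78), Atp6v0e2 (1.75), the neuronal membrane gene Sez6l2 (1.63), Adamts15 (1.58) and Epb41l4b (1.56). G0s2 held 1.88, 1.77 and 1.46 CPM in WT and 5.02, 4.46 and 6.51 CPM in R150X with OxLDL and did not pass in untreated cells (adjusted p = 0.788). Most negative were Ppbp, the leukocyte receptor Tarm1 (-3.62), Il1b, Itga2b, the fused ubiquitin and ribosomal gene Rps27a (-1.93) and the mast cell-expressed membrane protein Mcemp1 (-1.54). Rps27a has processed copies with which it can share reads, and Tarm1 was at most 0.501 CPM in the OxLDL libraries, where its own difference was lost in the paired fit (adjusted p = 0.0939).

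Several lists given above for OxLDL alone also had interactions. The interaction was negative for 10 of 24 genes for recognising dying cells (7 by library size alone), where 6 were higher and 9 lower in untreated cells. Of the 23 identity genes it was negative for 12 and positive for 3 (8 and 4 by library size alone), with 9 higher and 8 lower in untreated cells. It was negative for 6 of 11 antibody receptor genes (3 by library size alone), 8 of 26 chemokine genes (6), 7 of 16 matrix proteases and inhibitors (6) and 4 of 10 annexins (4). Positive interactions occurred as well, as for Cxcl12 among the chemokine genes (0.64) and Itgb3 among the genes for recognising dying cells (0.40). In untreated cells 7 annexins were higher and 0 lower. Of the 25 fatty acid oxidation genes 14 were higher and 1 lower in untreated cells, and the interaction was negative for 6 (2 by library size alone, and 3 without replicate 2 of WT or of R150X or untreated WT replicate 3).

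The other 24 gene lists had at most 3 members higher and 4 lower, and in 21 of them a count moved by more than 1.5 times when 1 library was left out, so no direction is read from them. They covered, among others, cholesterol synthesis, Toll-like receptors, NF-kB feedback, ER chaperones, iron handling and eicosanoids.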

How the data were processed

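RNA-seq counts were measured in 12 libraries, 4 groups of 3. The authors deposited raw counts per Ensembl gene, made with FastQC, HISAT2 and featureCounts on mm10/GRCm38, per the submitters' processing notes. Versions, annotation release and strand setting: not given in the sources used here. Overlapping and antisense genes therefore cannot be told apart. Symbols matched 54495 of 54532 identifiers. The other 37 held 0.00357% of counts.

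Counts were fitted with edgeR 4.0.16 (limma 3.58.1, R 4.3.3) by quasi-likelihood, with filterByExpr by group, TMM scaling and 1 coefficient per group over all 12 libraries. Genes passed at a Benjamini-Hochberg adjusted p under 0.05. DESeq2 1.42.0, other scalings, no filter, the 6 OxLDL libraries alone, a replicate block and leaving out each library were alternatives. Leaving out untreated libraries was added after seeing the data. On simulated data with 50 genes at each fold in the OxLDL comparison over 15338 genes, 42% were recovered at 1.25-fold and 96% at 4-fold.

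Same-numbered OxLDL libraries of the genotypes deviated together over 5662 genes (r = 0.318, 0.167 and 0.474), so the numbers were taken to pair them. Differently numbered OxLDL libraries gave r from -0.372 to 0.142, so for replicate 2 the match was barely closer than a mismatch. Same-numbered untreated libraries gave 0.0989, 0.256 and -0.103. This pairing comes from the data, not from the labels, so p-values of the paired fit rest on a choice made from the same counts. Counting intervals and floors cover counting error only.

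The comparison and gene lists were chosen with earlier results of these data known. Named genes were Gpnmb, the 12 largest differences in each direction (at least 5 CPM, no overlap), the 10 largest CPM differences, genes at 0 in 1 genotype, the 6 largest interactions in each direction, and up to 4 members per list. Others are list members chosen after their values were seen.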

Additional observations from a re-analysis of the deposited data

Results flagged for a closer look

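The genotype difference with OxLDL differed from the genotype difference without it, by edgeR's quasi-likelihood test of the interaction with an adjusted p under 0.05, for the genes given here. The value in parentheses is the log2 interaction, the difference with OxLDL minus the difference without. The values are those of the main fit with TMM scaling, where 480 interactions of all genes were positive and 796 negative. By library size alone 878 were positive and 442 negative, so calls of small values can depend on the scaling.

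It was positive for G0s2 (1.78), Atp6v0e2 (1.75), Sez6l2 (1.63), Adamts15 (1.58), Epb41l4b (1.56) and Iigp1 (1.49). Values were also positive for Lepr (1.38), Alpl (1.34), Scd1 (1.21), Trib3 (1.15), Ifit3 (1.03) and C4b (0.98). The positive values included those of Tnc (0.90), Phgdh (0.90), Asns (0.88), Phf11d (0.72), Egr1 (0.67) and Atf5 (0.65). Among further genes with a positive value were Cxcl12 (0.64), Aars (0.61), Vcan (0.57), Aldh1l2 (0.53), Mthfd2 (0.48) and Il1rn (0.48). Next in size, on the positive side, were Cars (0.44), Eprs (0.43), Col1a1 (0.43), Slc7a5 (0.41), Itgb3 (0.40) and Cdh5 (0.34). The smallest positive values were those of Dusp1 (0.30), Sars (0.30), Yars (0.29), Col1a2 (0.28), Atf4 (0.28) and Nars (0.24).

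It was negative for Ppbp (-3.86), Tarm1 (-3.62), Il1b (-2.28), Itga2b (-2.22), Rps27a (-1.93) and Mcemp1 (-1.54). Values were also negative for Mpo (-1.30), Lcn2 (-1.04), Slc36a2 (-0.92), Cxcl5 (-0.88), Cxcl16 (-0.84), Mefv (-0.80) and Fgr (-0.79). The negative values included those of Pf4 (-0.77), S100a8 (-0.76), Ngp (-0.73), H2-DMa (-0.72), Mmp13 (-0.72), Gsr (-0.70) and Clec7a (-0.69). Among further genes with a negative value were Cd36 (-0.66), Lgals3 (-0.62), Mmp12 (-0.61), C1qb (-0.59), Ccl2 (-0.58), Fabp4 (-0.57) and S100a9 (-0.57). Next in size, on the negative side, were C1qa (-0.55), Ccl6 (-0.53), Atf3 (-0.53), Mfge8 (-0.52), Plin2 (-0.51), Apoe (-0.51) and Csf1r (-0.50). A negative difference was likewise found for C1qc (-0.49), Fabp5 (-0.48), Capg (-0.48), Ucp2 (-0.46), Ccl7 (-0.46) and Mylip (-0.45). Smaller negative values belonged to Spp1 (-0.45), Mgll (-0.45), Anxa1 (-0.45), Atp6v1b2 (-0.45), Itgam (-0.44), Timp1 (-0.44) and Psap (-0.42). Still on the negative side stood Ctsh (-0.39), Lyz2 (-0.38), Pparg (-0.38), Ctsd (-0.36), Ms4a7 (-0.36), Gpnmb (-0.36) and Atp6v0c (-0.36). Further negative values came from Fcgr3 (-0.36), Cxcr4 (-0.35), C3 (-0.35), Fcgr1 (-0.35), H2-D1 (-0.34), Ms4a6d (-0.33) and Tgfbi (-0.33). The list of negative values went on with Axl (-0.32), Parp14 (-0.31), Pltp (-0.31), Ctsb (-0.30), Anxa4 (-0.30), Cpt1a (-0.29) and Neat1 (-0.27). The smallest negative values were those of Hmox1 (-0.26), Arl4c (-0.26), Itgal (-0.26), Mmp14 (-0.26), Cd68 (-0.22), Ctsc (-0.21) and Pkm (-0.20).

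Xist also had an interaction (5.19), a fitted value that depends on WT OxLDL libraries with at most 1 count each and is no measure of a fold. Whether sex composition differed between the treatments was not tested.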

How the results depend on the processing

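With the 6 OxLDL libraries alone and a replicate block that pairs same-numbered libraries, 3020 genes were called, 1492 of them higher, against 1996 and 935. A replicate block over all 12 libraries gave 2164 and the 6 libraries without a block 2168, while DESeq2 gave 1915, RLE scaling 1998, library size alone 2034 and no filter on low counts 2168. Leaving out 1 library gave 1423 to 2583 called genes (647 to 1234 higher, 776 to 1349 lower). The interaction gave 882 to 1397 (325 to 553 positive, 557 to 876 negative) and the untreated comparison 3887 to 4835 (2154 to 2663 higher, 1733 to 2172 lower). Scaling by library size alone gave 878 positive and 442 negative interactions, against 480 and 796, and 1849 genes higher and 3271 lower in untreated R150X cells, against 2780 and 2276, so both balances turned. In the OxLDL comparison the median log2 fold change of all genes was 0.018 under this scaling, against 0.002 in the main fit. The cause of these shifts was not tested.

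No called log2 difference of a named gene reversed under the alternatives run. Of 37 lists described, 2 had a median close to 0 that changed sign when 1 library was left out: fatty acid oxidation (0.007, and -0.006 without WT_OxLDL replicate 3) and cytokines (-0.018, and 0.038 without R150X_OxLDL replicate 2). Of the fits of named genes, 2432 stayed on the same side of the threshold, 33 lost the call and 8 gained it, and of the list counts 1497 stayed within 1.5 times and 211 did not. Depth limits genes near the floor of 3 counts, 0.158 to 0.209 CPM.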
